A study of Mus musculus with 9 samples.

Results

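The regulators of melanocyte identity described here are 8 genes, Mitf, Sox10, Pax3, Lef1, Mc1r, Kit, Ednrb and Tfap2a, and every open chromatin region in or near them in mouse B16 melanoma tumours. Each peak that overlapped the body of one of these genes, or lay within 50 kb of it, was taken, which gave 235 of the 137541 deposited peaks (0.171%) and, after overlapping peaks were merged, 51 of 32649 regions. The assay was ATAC-seq, in which a transposase cuts accessible DNA and the cut fragments are sequenced. The 9 libraries formed 3 groups of 3. The first was strain B16 treated chronically with IFNy (interferon gamma) before injection into mice, for 2 weeks in replicates 1 and 2 and for 3 weeks in replicate 3. The second was strain 499, called Res499 here, a B16-derived strain resistant to checkpoint blockade, which received no treatment, and the third was B16 with no treatment. All groups shared the growth in mice: tumours were taken on day 15 and the cells were sorted before nuclei were prepared. How the cells were sorted, the age and number of the mice, and whether replicates came from separate mice or from pools are not given in the sources used here, and Res499 is 1 strain.

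Melanocytes arise from the neural crest, and Mitf is their central transcription factor, which switches on the pigment genes. Sox10, Pax3, Lef1 (with beta-catenin) and Creb-family factors are known to act on the melanocyte-specific promoter of Mitf, and Tfap2a works beside Mitf at many pigment genes. Mc1r, Kit and Ednrb are the receptors through which melanocortin, Kit ligand and endothelin signals reach this network.

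The sequences below are the 250 bases before 4 RefSeq starts (GRCm38.p6, all on the + strand, written 5′ to 3′), shown because the peak lists treated these starts differently. The bases before the first start of Mitf carried a peak in all 9 libraries and those before its melanocyte-specific start in none. Those before the Mc1r start carried one in the 3 untreated libraries and in no other, but these peaks were weak and in none of the equal-length lists. The region at that start also had a peak in IFNy-treated replicate 1. The bases before the Kit start lay beside a region found in all 3 Res499 libraries and in untreated replicate 2, with summits of 6 to 11 fragments. In the equal-length lists the Kit region was in Res499 replicate 2 alone. Capitals mark matches, on either strand, to 11 motifs that were searched: CATGTG and CACGTG (E-boxes that Mitf binds), ACAAAG (Sox), CTTTGA (Tcf and Lef), GCCNNNGGC (Tfap2), TGACGTCA (the cAMP response element), TGACTCA (AP-1), TTCNNNGAA (Stat), the interferon response element, GGGCGG (GC box) and CCAAT. Neighbouring GC boxes can overlap.
Mitf first start, chr6:97806808-97807057: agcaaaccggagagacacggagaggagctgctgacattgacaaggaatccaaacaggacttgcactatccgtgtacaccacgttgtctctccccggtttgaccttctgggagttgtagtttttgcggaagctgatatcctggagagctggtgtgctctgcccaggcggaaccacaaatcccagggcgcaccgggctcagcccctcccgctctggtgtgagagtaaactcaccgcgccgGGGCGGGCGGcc
Mitf melanocyte start, chr6:97991533-97991782: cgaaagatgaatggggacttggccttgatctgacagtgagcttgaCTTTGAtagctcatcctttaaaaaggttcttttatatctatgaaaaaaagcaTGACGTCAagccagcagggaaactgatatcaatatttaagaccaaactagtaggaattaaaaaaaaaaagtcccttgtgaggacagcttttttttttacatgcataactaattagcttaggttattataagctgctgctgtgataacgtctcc
Mc1r start, chr8:123406832-123407081: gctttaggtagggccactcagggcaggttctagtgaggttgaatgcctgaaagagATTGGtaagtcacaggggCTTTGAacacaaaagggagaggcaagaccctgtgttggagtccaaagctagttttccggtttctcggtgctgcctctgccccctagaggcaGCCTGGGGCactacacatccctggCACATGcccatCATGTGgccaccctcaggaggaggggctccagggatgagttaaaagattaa
Kit start, chr5:75574737-75574986: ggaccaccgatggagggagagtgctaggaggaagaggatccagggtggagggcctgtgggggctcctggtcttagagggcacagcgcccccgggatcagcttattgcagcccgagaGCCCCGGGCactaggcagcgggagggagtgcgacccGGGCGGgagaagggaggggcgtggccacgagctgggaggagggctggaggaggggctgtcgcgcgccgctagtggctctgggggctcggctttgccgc

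The 2 Mitf sequences differ in make-up. The first had 59.6% G and C with 2 overlapping GC boxes, and the melanocyte one had 36% G and C with 1 TGACGTCA and 1 CTTTGA, against a median of 52.4% G and C over 32851 mouse promoters of the same length. TGACGTCA occurred in 1.55% of those promoters, CTTTGA in 13.8% and GGGCGG in 32.7%. The Mc1r sequence held 2 CATGTG matches (one read as CACATG), a motif found in 12.3% of promoters, with 1 match each to CTTTGA, the Tfap2 motif and CCAAT. The Kit sequence had 70.8% G and C with 1 GC box and 1 Tfap2 match. Of the 13 member promoters with a sequence, 8 held a GC box, 4 the Tfap2 motif (13.7% of all promoters), 3 CTTTGA, 3 CCAAT (33.8%), while CATGTG was found in 1, the other E-box in 1 (6.02% of all), ACAAAG in 1 (16.5%) and TGACGTCA in 1. The windows of the 2 Kit starts overlap, as do those of the first 2 Lef1 starts, so their matches (GC box in both pairs, Tfap2 motif at Kit) are counted for each start. No member promoter held TGACTCA (4.46% of all), TTCNNNGAA (7.02%) or the interferon response element (2.98%). A match describes the letters and not the binding of a factor.

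The lists differed in length before any gene was considered: they held 16240, 13175 and 11183 peaks in IFNy-treated B16, 15396, 9221 and 11768 in Res499, and 15045, 25374 and 20139 in untreated B16. A peak can therefore be missing from a list because the list is short. Presence was compared in lists cut to the 9214 strongest peaks of each library, and strength was compared by ranks. Relative depth, recovered from the peak values, was 7.59 to 11.1 fragments per kb. The libraries also fell into a class with a shortest peak of at least 150 bp (replicate 3 of IFNy-treated B16, replicate 3 of Res499, and replicates 1 and 3 of untreated B16) and a class with shorter peaks. Markers were counted by a peak at most 1 kb from either end of the gene. Of 7 melanoma markers, Mitf, Dct and Pmel had one in all 9 libraries, Tyr in 3 IFNy-treated, 1 Res499 and 3 untreated libraries, and Tyrp1 in 2, 1 and 3. The other 2 had one in a single library, Mlana in 1 of Res499 and Sox10 in 1 of untreated B16, so none of the 7 was at 0. Of 10 leukocyte markers 9 were at 0, and Coro1a had a peak in 1 untreated library. All 6 endothelial markers were at 0. Of 6 fibroblast markers 4 were at 0, while Col1a1 had a peak in 3 IFNy-treated, 1 Res499 and 3 untreated libraries and Pdgfrb in 1 untreated library. In bulk samples of sorted tumour cells, fewer cells with an open site and a less open site in each cell cannot be told apart.

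The 51 regions comprised 8 at an annotated end of a member, 12 inside the member bodies, 24 outside them, and 7 at the end of another coding gene in the window, where an end reaches 1 kb to each side and the nearer end counts. A peak in all 9 libraries was found for 12 regions (23.5%), where 18.9% of all regions had one. Of the 12 regions inside member bodies 5 were found in all 9 libraries, of the 24 outside 3, and of the 8 at member ends 2; the shares over all regions were 45.7% near a coding gene end and 5.54% away from one. Another 17 regions (33.3%, against 36.8% of all regions) were seen in 1 library only, and these were 3 of IFNy-treated B16, 2 of Res499 and 12 of untreated B16. Replicates 2 and 3 of untreated B16, the libraries with the longest lists, held 7 and 4 of those 12.

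**Figure D1:**
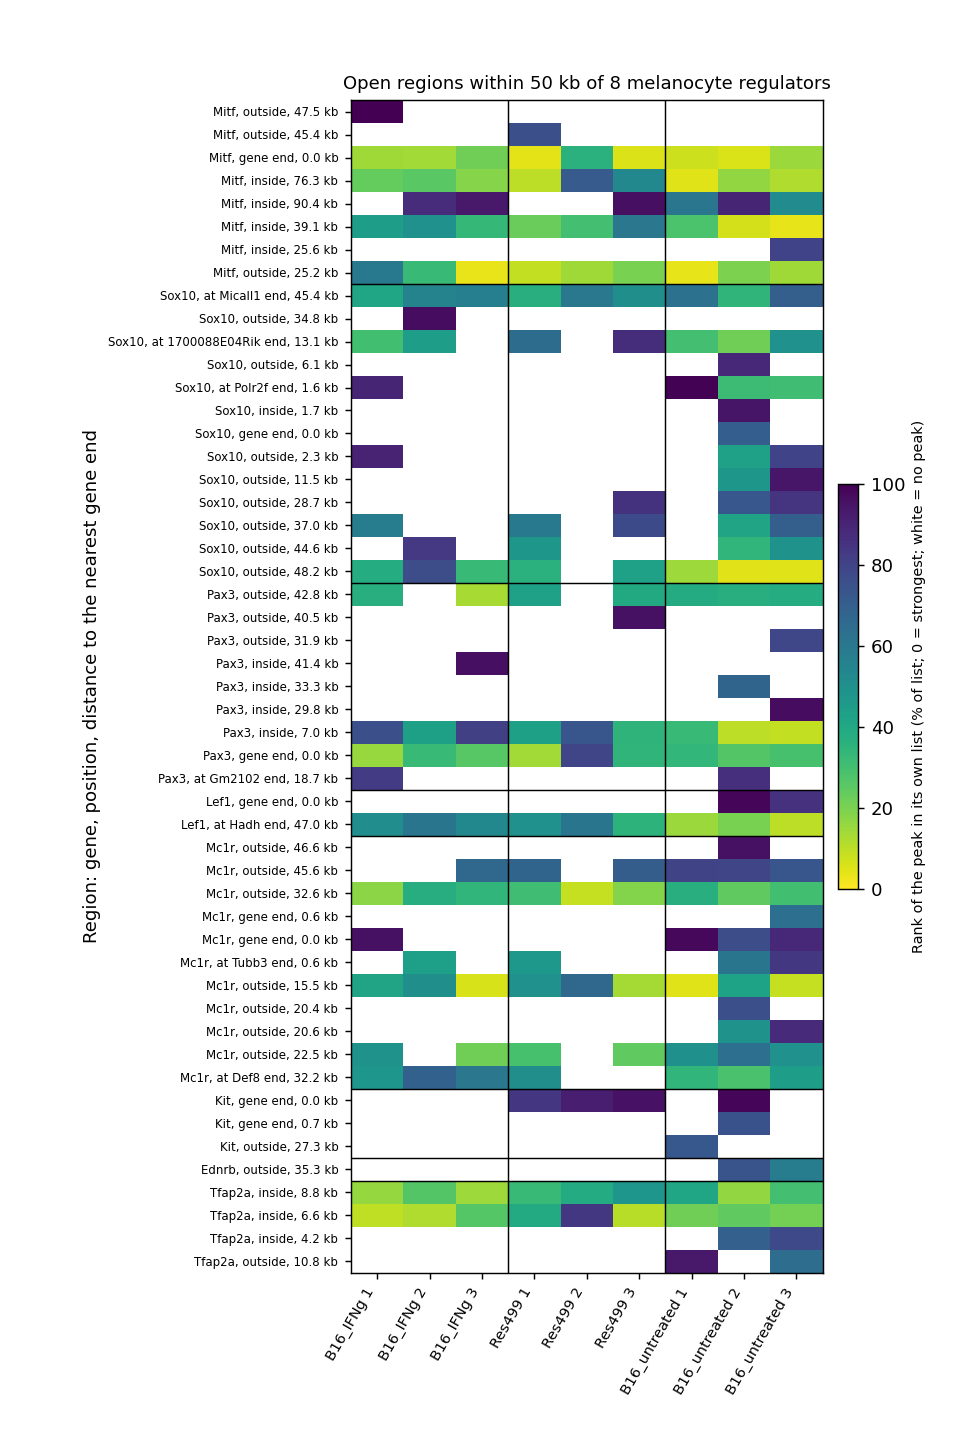
Rank of each of the 51 member regions in each library's own list, as a percentage of the list (0 is the strongest peak, white is no peak). Rows are regions named by gene, position and distance to the nearest end of that gene, and columns are libraries; the Kit rows are blank in all 3 IFNy-treated libraries, and the Ednrb row is blank outside untreated replicates 2 and 3.

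Peaks per library in the 8 windows numbered 26, 20 and 20 in IFNy-treated B16, 28, 14 and 22 in Res499, and 23, 45 and 37 in untreated B16. The untreated libraries overlapped the others, through replicate 1. In the equal-length lists the counts were 15, 15 and 17 in IFNy-treated B16, 19, 14 and 17 in Res499, and 17, 16 and 15 in untreated B16, and the groups overlapped throughout. As a share of its list, the 8 windows took 0.164% ± 0.0139 in IFNy-treated B16, 0.174% ± 0.0190 in Res499 and 0.171% ± 0.0163 in untreated B16 (SD, n = 3 each), so the group means differed by less than 1 SD. The windows of Sox10 and Mc1r were the densest, with 11.9 and 10.6 regions per 100 kb, above 99.6% and 98.9% of coding genes. These densities count regions seen in any full list, those at ends of other genes included. Of the 13 Sox10 regions 1 was in all 9 libraries, and of the 11 Mc1r regions 2 were. The median over the 8 members was 2.88 and over all coding genes 2.22 regions per 100 kb.

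**Figure D2:**
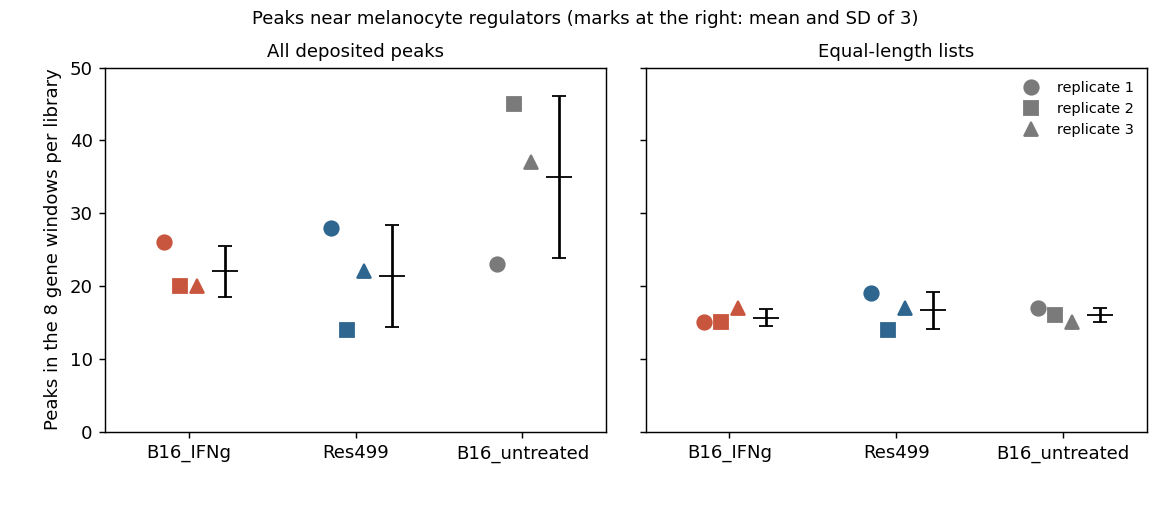
Number of peaks in the 8 gene windows in each library, from all deposited peaks (left) and from lists of equal length (right). Points are replicates and bars are the mean and SD of 3; the untreated mean of 35 in the full lists came to 16 in the equal-length lists, where the groups overlap.

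The ends of the 8 genes fell into 3 patterns. Mitf and Pax3 had a peak within 1 kb of an end in all 9 libraries, as did 26.4% of coding genes. Ednrb and Tfap2a had none in any library, as did 49.4% of coding genes. The other 4 lay between: Mc1r had one in 2 IFNy-treated, 1 Res499 and 3 untreated libraries (in 1 of the 2 and in the 1 of Res499 through the region at the Tubb3 end alone), Kit in 0, 3 and 1, Lef1 in 0, 0 and 2, and Sox10 in 0, 0 and 1, in the same order of groups.

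In the regions with a peak in all 9 libraries, 12 of them at members, ranks were compared by limma, on ranks taken anew among the 6166 such regions and turned into normal scores. A positive score difference means a stronger rank in the group named first, on a scale where 1 is 1 SD of all regions in a library. No member region passed an adjusted p of 0.05 in any of 4 comparisons, where 0% of the 6166 regions did. For IFNy-treated against untreated B16, 0 of 12 member regions were higher and 3 lower at an unadjusted p under 0.05 (all regions 2.27% and 1.93%), with a median score difference of -0.17 for the members and -0.0020 for all regions. For Res499 against untreated B16, 2 were higher and 0 lower (all regions 3.89% and 3.18%), and the median of the members was 0.0021 and of all regions -0.0063. For Res499 against IFNy-treated B16, 0 were higher and 0 lower (3.18% and 2.9%), with a median of 0.28 for the members and -0.0040 for all regions. For both tested groups together against untreated B16, 2 were higher and 3 lower (2.89% and 2.43%), with medians of -0.015 for the members and -0.013 for all regions. The comparisons with untreated B16 share the 3 untreated libraries. The smallest adjusted p of a member was 0.997, 0.645, 0.801 and 0.927 in these comparisons.

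Presence was compared in the equal-length lists. A region was called gained when found in every library of the group named first and in no library of the other, and lost in the reverse case. No member region was gained or lost in IFNy-treated against untreated B16, where 0.392% and 0.612% of all regions were, or in Res499 against untreated B16, where 0.62% and 0.989% were. The same held for Res499 against IFNy-treated B16 (0.408% and 0.56%) and for both groups together against untreated B16 (0.0449% and 0.205%). No p is attached to these calls, and between 2 groups of 3 libraries an exact test reaches 0.1 at best.

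Ranks were also compared without limma. Among the 12 common regions, 5 were stronger and 2 weaker in every IFNy-treated than in every untreated library (all common regions 5.64% and 4.95%), and for Res499 against untreated B16 the counts were 2 and 0 (6.41% and 5.92%). For Res499 against IFNy-treated B16 they were 1 and 1 (5.35% and 5.42%), and for both groups together against untreated B16 2 and 0 (1.46% and 1.43%). To take in regions missing from some lists, a further reading asked which regions had ranks in the equal-length lists that did not overlap between groups, with an absent peak placed last. In IFNy-treated against untreated B16, 22 member regions had such a peak, and 5 were stronger and 3 weaker in every treated library (all regions 3.47% and 3.48%). The 5 were the Pax3 end, both common regions inside Tfap2a, the region inside Tcf25 near Mc1r and the Micall1 end near Sox10. The 3 weaker ones were the distal Sox10 region, the region inside Pax3 and the Hadh end near Lef1. In Res499 against untreated B16, 2 of 24 were stronger and 1 weaker (3.96% and 4.7%), namely the Micall1 end and the region inside Tcf25 as stronger, and the distal Sox10 region as weaker. In Res499 against IFNy-treated B16, 1 of 22, the Micall1 end, was stronger and 0 were weaker (3.16% and 3.52%). The 2 stronger regions and the 1 weaker region of the Res499 comparison were also those of both groups together against untreated B16 (0.642% and 1.07% of all regions).

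Mitf (chr6:97807002-98021360, + strand) had 8 regions and 46 peaks. Its first start, from which a longer isoform is made, lay in the region chr6:97806508-97807634. The fold there, the authors' enrichment over local background, was 8.54, 9.15 and 7.05 in replicates 1 to 3 of IFNy-treated B16, 9.39, 6.04 and 7.31 in Res499, and 7.95, 14.4 and 8.79 in untreated B16. The groups overlapped, and the highest fold was that of untreated replicate 2. In its own list this peak ranked 2293, 1841 and 2414 in IFNy-treated B16, 614, 3319 and 608 in Res499, and 1153, 1484 and 3049 in untreated B16. The summit held 27, 19 and 24 fragments in IFNy-treated B16, 31, 17 and 38 in Res499, and 47, 46 and 42 in untreated B16, not adjusted for depth or fragment class. The region at the first start was the strongest member region in Res499 replicates 1 and 3. The score difference was -0.15 ± 0.46 (SE) for IFNy-treated and 0.28 ± 0.46 for Res499 against untreated B16 (limma, unadjusted p = 0.741 and 0.543, adjusted p = 0.997 and 0.947).

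The melanocyte-specific start of Mitf, at position 97991783, was called in no list. No library had a peak over the 250 bases before it, and none had one over those before the second start at 97929817. The nearest region to the melanocyte start lay 3831 bp away (chr6:97995614-97995804) and was found in untreated replicate 3 only, with a fold of 3.89 at rank 16116. The nearest region found in all 9 libraries, chr6:97981333-97982294, lay 9489 bp before it. A start with no peak is one where no peak passed the authors' threshold, a lowest −log10 q close to 2 in each list, and is not shown to be closed.

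That region before the melanocyte start had the largest score difference between IFNy-treated and untreated B16 among the 4 tested regions of Mitf. Its fold was 6.13, 5.88 and 5.48 in IFNy-treated B16, 6.90, 5.85 and 4.02 in Res499, and 5.31, 12.6 and 10.003 in untreated B16. Among the 6166 common regions it ranked 5134, 4833 and 3282 in IFNy-treated B16, 3112, 2574 and 5248 in Res499, and 3620, 1563 and 734 in untreated B16. Untreated replicates 2 and 3 were above all other libraries, while untreated replicate 1 ranked below IFNy-treated replicate 3. The score difference was -1.15 ± 0.49 for IFNy-treated and -0.82 ± 0.49 for Res499 against untreated B16 (limma, unadjusted p = 0.0292 and 0.108, adjusted p = 0.997 and 0.781). Neither passed the threshold.

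Mitf had 2 more regions in all 9 libraries. The region chr6:97883271-97883984, inside the gene and 45833 bp from the nearest RefSeq start, ranked 3364, 2979 and 1937 in IFNy-treated B16, 1459, 5275 and 4856 in Res499, and 696, 3523 and 2195 in untreated B16, among the common regions. Its score difference from untreated B16 was -0.33 ± 0.51 for IFNy-treated B16 and, the largest for Res499 at Mitf, -0.85 ± 0.51 for Res499 (limma, unadjusted p = 0.527 and 0.115, adjusted p = 0.997 and 0.790). The region chr6:98046527-98047254, 25167 bp beyond the far end of the gene, ranked 5820, 3619 and 375 in IFNy-treated B16, 1346, 1282 and 2192 in Res499, and 515, 4108 and 2635 in untreated B16. Replicates of IFNy-treated B16 thus spanned most of the scale at the second of these, and the groups overlapped at both. Another region inside the gene, chr6:97897439-97898481, had a peak in 2 IFNy-treated, 1 Res499 and 3 untreated libraries, with folds of 3.66 to 6.46. The remaining 2 Mitf regions, before the first start, were each seen in 1 library.

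**Figure D3:**
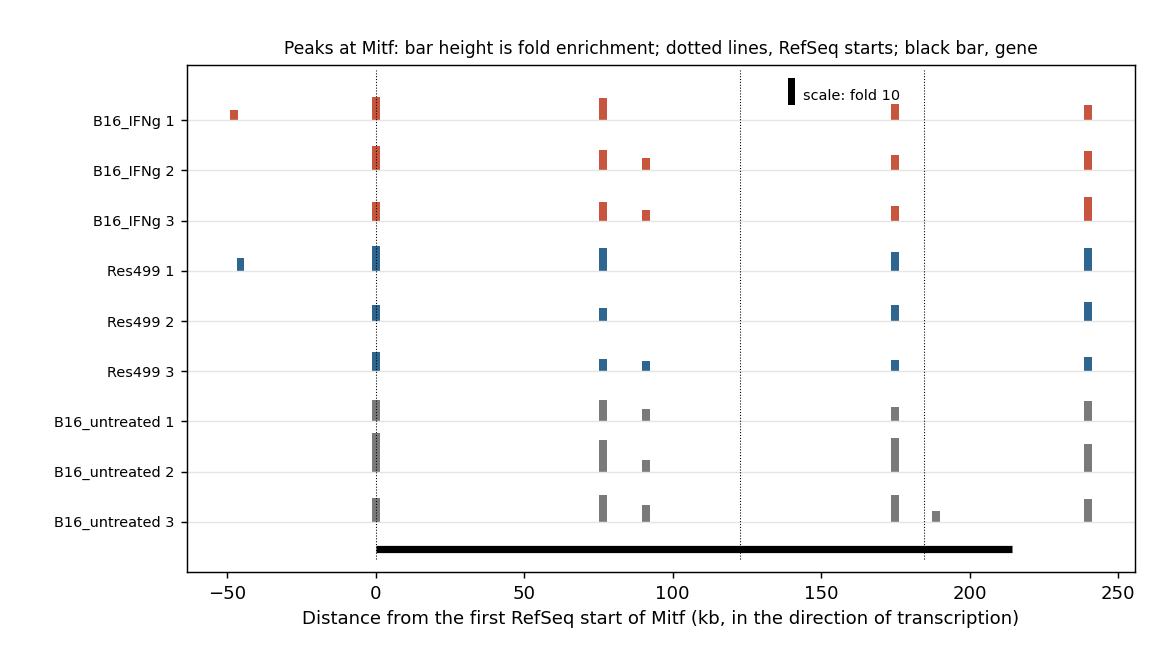
Peaks at Mitf in each library along the gene, in kb from its first RefSeq start; bar height is the deposited fold (a scale bar marks a fold of 10), dotted lines are the 3 RefSeq starts and the black bar is the gene. Bars stand at the first start in all 9 libraries and at none of the other 2 starts.

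Sox10 (chr15:79154913-79164490), the neural crest factor that activates Mitf and Dct, had the most regions, 13, and 52 peaks, of which 1 was in Res499 replicate 2 and 14 were in untreated replicate 2. Its only region at a gene end (chr15:79164411-79164659) was found in untreated replicate 2, with a fold of 4.0 at rank 17836. The other region inside the gene was also seen in that library alone. The strongest Sox10 region lay outside, 48180 bp beyond the upper end of the gene, at chr15:79212670-79213423. The nearest end of another coding gene, Pick1, was 15717 bp away.

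That distal Sox10 region had a peak in 3 IFNy-treated, 2 Res499 and 3 untreated libraries. It ranked 6202, 10047 and 3625 in IFNy-treated B16, 5581 and 5024 in Res499 replicates 1 and 3, and 2177, 1117 and 1009 in untreated B16. Every untreated library placed it higher than any other library did, and Res499 replicate 2, which has the shortest list, had no peak. The fold was 5.87, 4.68 and 5.38 in IFNy-treated B16, 5.23 and 4.31 in Res499, and 5.41, 11.4 and 8.62 in untreated B16. By fold, IFNy-treated and untreated B16 overlapped, since untreated replicate 1 lay below IFNy-treated replicate 1, while both Res499 folds lay below the lowest untreated one. Folds also differed between whole lists. Their medians were 6.43, 6.31 and 5.81 in IFNy-treated B16, 5.78, 5.76 and 5.23 in Res499, and 5.78, 6.90 and 6.42 in untreated B16. Ranked by fold, no member region was weaker in every library of both tested groups. The summit held 23, 12 and 27 fragments in IFNy-treated B16, 24 and 31 in Res499, and 56, 62 and 68 in untreated B16. These fragment counts are not adjusted for depth or fragment class. The recovered local background there was 3.09, 1.78 and 4.21 in IFNy-treated B16, 3.78 and 6.42 in Res499, and 9.53, 4.50 and 7.01 in untreated B16. The distal Sox10 region was the strongest member region of untreated replicate 2 and the second of untreated replicate 3. The region was not in all 9 lists, so limma gives it no p.

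A second Sox10 neighbour ordered the groups the other way. The region chr15:79108441-79109530, at the end of Micall1, ranked 4959, 5214 and 4899 among the common regions in IFNy-treated B16, 4536, 4658 and 4661 in Res499, and 5751, 5583 and 6126 in untreated B16. The 3 groups did not overlap, and Res499 ranked it highest. The score difference was 0.86 ± 0.43 for IFNy-treated and 1.09 ± 0.43 for Res499 against untreated B16 (limma, unadjusted p = 0.0590 and 0.0201, adjusted p = 0.997 and 0.645). Its fold was 6.89, 6.0 and 5.89 in IFNy-treated B16, 6.32, 5.29 and 5.08 in Res499, and 5.23, 8.35 and 5.04 in untreated B16, and these overlapped.

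A region near Polr2f, 1582 bp below the lower end of Sox10 (chr15:79151971-79153331), had a peak in IFNy-treated replicate 1, with a fold of 3.84, in no Res499 library, and in all 3 untreated libraries, with folds of 2.78, 5.94 and 5.35. It counts as lost in Res499 against untreated B16 in the full lists, as 3.97% of all regions did, but not in the equal-length lists, where 2 untreated libraries held it. The region at the end of 1700088E04Rik, 13144 bp away (chr15:79141014-79141769), had a peak in 2 IFNy-treated, 2 Res499 and 3 untreated libraries, with folds of 3.95 to 10.6.

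Pax3 (chr1:78101267-78197136), a paired-box factor that acts with Sox10 on Mitf, had 9 regions and 34 peaks, of which 2 regions were found in all 9 libraries. The region at its upper end was chr1:78196592-78197562, and the other lay inside the gene, 6967 bp from that end, at chr1:78189232-78190169. The end region had folds of 8.56, 7.39 and 6.53 in IFNy-treated B16, 7.60, 4.65 and 5.16 in Res499, and 5.62, 8.55 and 7.10 in untreated B16. The internal region had folds of 4.70, 6.53 and 4.17 in IFNy-treated B16, 5.73, 4.66 and 4.99 in Res499, and 5.49, 12.7 and 9.82 in untreated B16. Both sets of folds overlapped between groups.

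The 2 Pax3 regions differed in rank in opposite directions between IFNy-treated and untreated B16, and neither difference passed the threshold. The end ranked 2303, 3640 and 2658 among the common regions in IFNy-treated B16, 1998, 5609 and 3519 in Res499, and 4197, 4969 and 4504 in untreated B16. Every IFNy-treated library ranked the end higher than any untreated library, with a score difference of 0.74 ± 0.47 (limma, unadjusted p = 0.135, adjusted p = 0.997). The internal region ranked 6078, 4484 and 5901 in IFNy-treated B16, 5001, 5363 and 3567 in Res499, and 4052, 2369 and 1755 in untreated B16. Every IFNy-treated library ranked it lower than any untreated library, and its score difference of -1.66 ± 0.49 had the smallest p of any member region (limma, unadjusted p = 0.00298, adjusted p = 0.997). For Res499 against untreated B16 the difference was -0.89 ± 0.49 (limma, unadjusted p = 0.0838, adjusted p = 0.763), and the groups overlapped.

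Within single libraries, the internal Pax3 region ranked above the Pax3 end in 0 of 3 IFNy-treated, 1 of 3 Res499 and 3 of 3 untreated libraries. Such an order, with the gene end above the distal region in every IFNy-treated and in no untreated library, was seen in 4 of 797 pairs of a gene end and a distal region in all 9 lists (0.502%). This reading was added after the ranks were seen. The share covers only the order and comparison seen at Pax3, and the reverse order and the other comparisons were not counted. The 3 Mitf pairs of the first start with a distal region did not show such an order: the distal region was above the start in 1 IFNy-treated, 0 Res499 and 2 untreated libraries for chr6:97883271-97883984, in 0, 1 and 1 for chr6:97981333-97982294, and in 1, 1 and 2 for chr6:98046527-98047254. In untreated replicate 1 of the Pax3 pair the ranks were 4052 and 4197, close to each other. Ranked by fold, the internal region was above the end in 2 of 3 untreated libraries.

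**Figure D4:**
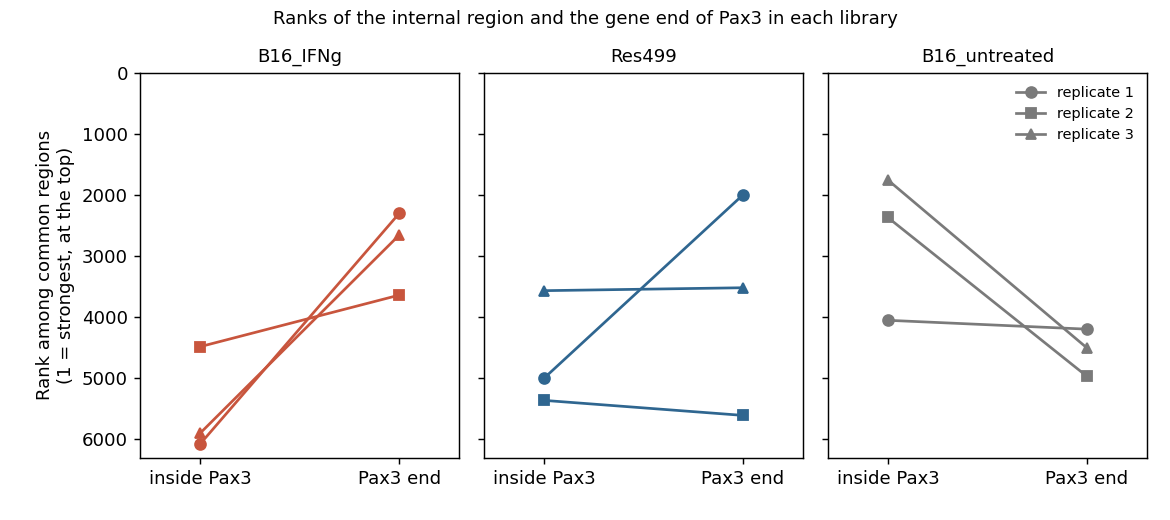
Ranks of the region inside Pax3 and of the region at the Pax3 end among the 6166 common regions (1 is the strongest and stands at the top), 1 line per library and 1 panel per group. The lines climb toward the end in all 3 IFNy-treated libraries and descend in all 3 untreated libraries.

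Further from Pax3, the region chr1:78057952-78058506, 42761 bp below the lower end, had a peak in 2 IFNy-treated, 2 Res499 and 3 untreated libraries, with folds of 5.82 to 8.96. In IFNy-treated replicate 3 it ranked 1452, with 2 member regions above it. Res499 replicate 2 and IFNy-treated replicate 2 had none. The region at the end of Gm2102 was found in 2 libraries, and the other 5 Pax3 regions in 1 each.

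Lef1 (chr3:131110297-131224357, + strand), a partner of beta-catenin in Wnt signalling, had 2 regions. The one at its start, chr3:131110315-131110573, had a peak in untreated replicates 2 and 3 only, with folds of 3.95 and 4.83 at ranks 25003 and 17258. Those ranks lie beyond the end of every list of the other groups, so its absence there cannot be told apart from list length. The other, chr3:131271339-131272518, lay at the end of Hadh, 46982 bp beyond Lef1, and was in all 9 libraries. It ranked 5528, 5452 and 4710 among the common regions in IFNy-treated B16, 5379, 4734 and 3601 in Res499, and 2099, 4147 and 1909 in untreated B16. Every IFNy-treated library was below every untreated one, with a score difference of -1.21 ± 0.44 (limma, unadjusted p = 0.0132, adjusted p = 0.997), and 1 Res499 library was above the lowest untreated one (-0.85 ± 0.44, unadjusted p = 0.0713, adjusted p = 0.744). The region was placed in the window of Lef1 by distance alone.

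Tfap2a (chr13:40713802-40738238, − strand), a factor of neural crest and melanocyte development, had 4 regions, 3 of them inside the gene, and no peak within 1 kb of either end. Of the 4, 2 were in all 9 libraries, at chr13:40722621-40723457 and chr13:40730578-40731597, the second 2198 bp from a RefSeq start. The first ranked 2358, 3120 and 1559 among the common regions in IFNy-treated B16, 4083, 3228 and 4491 in Res499, and 4757, 3554 and 4592 in untreated B16. All IFNy-treated libraries were above all others, with a score difference of 0.85 ± 0.42 against untreated B16 and of -0.68 ± 0.42 for Res499 against IFNy-treated B16 (limma, unadjusted p = 0.0577 and 0.123, adjusted p = 0.997 and 0.849).

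The second Tfap2a region ranked 1457, 1464 and 2686 in IFNy-treated B16, 4654, 5775 and 1214 in Res499, and 2896, 4741 and 3589 in untreated B16. IFNy-treated libraries were again above untreated ones (0.82 ± 0.53, limma, unadjusted p = 0.136, adjusted p = 0.997), while Res499 replicate 3 ranked it highest of all. With folds of 9.36 and 9.06, it was the strongest member region in replicates 1 and 2 of IFNy-treated B16. One more region, chr13:40733728-40734045, covered a RefSeq start inside the gene body and was found in untreated replicates 2 and 3 only, with folds of 4.62 and 4.04 at ranks 17601 and 15723. In the other groups, only the list of IFNy-treated replicate 1 runs past rank 15723, and none runs past 17601. The fourth, 10793 bp outside, was seen in untreated replicates 1 and 3.

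**Figure D5:**
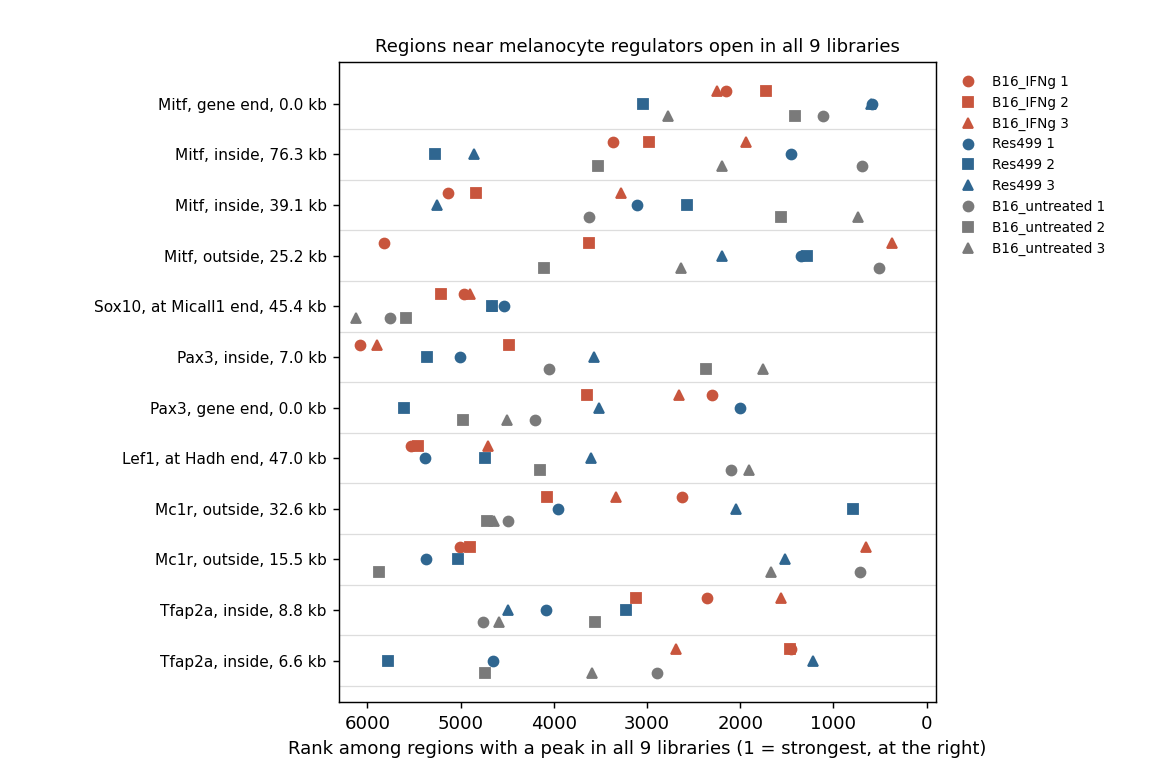
Ranks of the 12 member regions with a peak in all 9 libraries, among the 6166 regions that have one (1 is the strongest and stands at the right). Rows are regions, colours are groups and marker shapes are replicates; IFNy-treated and untreated libraries do not overlap in 7 rows, which did not pass the threshold of the limma test.

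Mc1r (chr8:123407082-123410744, + strand), the melanocortin receptor that raises cAMP and so Mitf, sits among closely packed genes and had 11 regions and 62 peaks. At its start, chr8:123407027-123407385 had a peak in IFNy-treated replicate 1, with a fold of 3.63 at rank 15503, in no Res499 library, and in all 3 untreated libraries, with folds of 2.93, 4.19 and 3.36 at ranks 14716, 19363 and 17787. All 4 peaks were weak, with 13 fragments at the summit in the treated library and 21, 17 and 21 in the untreated ones. The region was lost in Res499 in the full lists, where 3.97% of all regions were, and it was in none of the equal-length lists. Of the Res499 lists, those of replicates 2 and 3 end before rank 14716. A region 610 bp before the start was found in untreated replicate 3 only. The region at the Tubb3 end, 613 bp beyond Mc1r (chr8:123411357-123411723), was in 1 IFNy-treated, 1 Res499 and 2 untreated libraries.

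The strongest distal regions near Mc1r followed other orders. The region chr8:123373432-123374490, inside Tcf25 and 32592 bp before Mc1r, ranked 2620, 4075 and 3336 among the common regions in IFNy-treated B16, 3956, 795 and 2044 in Res499, and 4492, 4715 and 4644 in untreated B16. All tested libraries were above all untreated ones, with score differences of 0.56 ± 0.45 for IFNy-treated and 1.07 ± 0.45 for Res499 (limma, unadjusted p = 0.227 and 0.0276, adjusted p = 0.997 and 0.658). It was the strongest member region of Res499 replicate 2. The region chr8:123426213-123428764, 15469 bp beyond Mc1r, ranked 5008, 4893 and 652 in IFNy-treated B16, 5367, 5027 and 1523 in Res499, and 717, 5878 and 1666 in untreated B16. Its 4 high libraries were exactly those with the longer shortest peak, as in 1.36% of the common regions (0.714% had the reverse order), and the groups overlapped.

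At 3 other places around Mc1r a peak was found in at least 6 libraries. The region chr8:123433199-123434139 was in 2 IFNy-treated, 2 Res499 and 3 untreated libraries, with folds of 3.75 to 5.74. The region at the end of Def8, chr8:123442904-123443621, was in 3, 1 and 3 libraries of the same groups, with folds of 5.73 to 10.03, and was absent from Res499 replicates 2 and 3. The region chr8:123360859-123361488 was in 1, 2 and 3, with folds of 4.74 to 5.64.

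Kit (chr5:75574987-75656722, + strand), the receptor for stem cell factor that melanoblasts need to survive and migrate, had 3 regions and 6 peaks. The region at its start, chr5:75574999-75575611, had a peak in no IFNy-treated library, in all 3 Res499 libraries, with folds of 4.61, 4.68 and 4.15 at ranks 12959, 8436 and 11197, and in untreated replicate 2, with a fold of 3.95 at rank 25039. It is 1 of the 33 regions (0.147%) gained in Res499 against IFNy-treated B16 in the full lists. In the equal-length lists it was in Res499 replicate 2 alone, so the gain did not hold there. The summits held 10, 9 and 11 fragments in Res499 and 6 in the untreated library, near the lower limit of what these lists report. The IFNy-treated lists of replicates 1 and 2, with 16240 and 13175 peaks, ran past the ranks of all 3 Res499 peaks, and that of replicate 3, with 11183 peaks, did not. The other 2 Kit regions were each found in 1 untreated library.

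Ednrb (chr14:103814615-103844508, − strand), the endothelin receptor of melanoblasts, had the fewest peaks. Its only region, chr14:103778581-103779302, lay 35313 bp outside the gene and had a peak in untreated replicates 2 and 3, with folds of 5.64 and 6.53 at ranks 18779 and 11675. No library had a peak in the gene or at its ends.

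Genes around the members were read at their ends in the same way. Of 30 ligands, cofactors and other regulators, 29 were matched to the gene table (Asip was not), and 7 had a peak in all 9 libraries and 12 in none. Over all coding genes, 26.4% had one in all 9 libraries and 49.4% in none. Sox9, a relative of Sox10, had 1 region gained in IFNy-treated against untreated B16 in the equal-length lists, and Tfe3, a relative of Mitf, had 1 lost (0.392% and 0.612% of all regions), with no others in any comparison. In the full lists Sox9 had a peak at an end in 3 IFNy-treated, 2 Res499 and 3 untreated libraries and Tfe3 in 2, 2 and 3. Of 22 genes known to be driven by Mitf or Sox10, 7 had a peak in all 9 libraries and 6 in none, and Tyrp1, a pigment enzyme, had 1 region lost in Res499 against untreated B16 (0.989% of all regions). In the full lists Tyrp1 had a peak at an end in 2 IFNy-treated, 1 Res499 and 3 untreated libraries. Of 7 tested regions of the first list and 8 of the second, 0 passed the adjusted p in any limma comparison. At an unadjusted p under 0.05 the first list had 1 region in IFNy-treated against untreated B16 (all regions 2.27% higher and 1.93% lower). The same region was the 1 in Res499 against IFNy-treated B16 (3.18% and 2.9%), and these 2 comparisons share the IFNy-treated libraries. Its direction is not given here. The second list had 0 in any comparison.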

How the data were processed

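The data are ATAC-seq peak lists, 1 for each of 9 libraries, 3 per group. The submitters' processing notes name the build GRCm38 (mm10) and, as tools, MACS2, Bowtie2 2.2.4, cutadapt 1.9 and CASAVA. Settings are not given in the sources used here, nor is whether reads were shifted for the transposase. Peaks were called per library. The deposited values per peak are a score (not used), a fold over local background (a ratio), and −log10 p and −log10 q, all made by the authors. Summit fragments and background were recovered from the deposited fold and −log10 p, which matched within 0.01 for 99.95% to 100% of the 2000 weakest peaks of each library. Depth in reads is unknown, and ranks within a list were used in place of levels.

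Overlapping or touching peaks were joined into regions, which were placed by a RefSeq gene table (GRCm38.p6), which gives neither exons nor, for Sox10 and Pax3, a strand here, so exons and introns are not given. Starts, strands and promoter sequences came from a RefSeq promoter table of the same build. Regions in all 9 lists were ranked by −log10 p within each library and compared with limma 3.58.1 (R 4.3.3) on normal scores, with Benjamini-Hochberg adjustment over all 6166 regions and a threshold of 0.05. Where nothing says that replicates came from separate mice, the p-values measure the spread between libraries only. Gained and lost regions were counted in lists of 9214 peaks on chromosomes 1 to 19, X and Y. The reading of ranks that do not overlap was added after seeing the data.

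The members, gene lists and tests were chosen with earlier results of these data known. The regions named are those at a member's end, distal regions in at least 6 lists, and any gained, lost or called; a few others, such as the distal region of Ednrb, were named after their values were seen. Other list genes are named where a region at their end was gained, lost or called. The fit was also run on simulated data with planted differences. Whether it can call differences of the size printed here is not reported, so the absence of calls does not show that the groups were alike. Alternatives were ranking by fold, merging over 250 bp, 50% coverage of a region, other list lengths, a 10 kb window, a stricter q-value, the fragment class, a replicate block and leaving out each library.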

Additional observations from a re-analysis of the deposited data

How the results depend on the processing

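No member region passed the adjusted p in limma under any alternative run, and the 10 score differences recomputed, those of common regions past an unadjusted p of 0.05 or without overlap, 8 of IFNy-treated and 2 of Res499 against untreated B16, kept their sign (50% coverage gave a value only for the region inside Tcf25; other printed differences were not recomputed; for the region inside Pax3, IFNy-treated against untreated B16, -2.05 to -1.31, with unadjusted p from 0.000653 to 0.0246 and adjusted p from 0.834 to 0.9999). The replicate numbers paired the libraries weakly at most. Correlations of deviations were -0.02 to 0.10 between same-numbered libraries and -0.10 to 0.08 between differently numbered libraries of 2 groups. With the replicate block 0 regions were called, as without it. Among all regions, leaving out 1 library gave 0 to 1 calls for both groups together against untreated B16, the 1 without untreated replicate 3. Of the member regions gained or lost in no comparison of the equal-length lists, all deposited peaks gave 2 lost in Res499 against untreated B16 and 1 gained in Res499 against IFNy-treated B16. Over all regions in the full lists, these shares were 3.97% and 0.147%. Lists cut to 4607 peaks gave 1 gained in IFNy-treated and 1 lost in Res499, both against untreated B16. Ranking by fold gave 2 lost in Res499. Requiring 50% coverage gave 2 lost in IFNy-treated, 4 in Res499 and 1 in both together. Within the long fragment class, with 1 library per tested group, 2 were gained in IFNy-treated, 3 gained and 1 lost in Res499, 2 gained in both together, and 1 gained and 1 lost in Res499 against IFNy-treated B16; within the short class the counts were 1 gained and 2 lost, 1 gained and 2 lost, 1 gained and 1 lost, and 0 gained and 1 lost. Leaving out each library gave 0 to 1 gained and 0 to 1 lost in each of the 4 comparisons. Of the counts of regions whose ranks do not overlap, ranking by fold gave 1 weaker in IFNy-treated, 3 weaker in Res499, 0 weaker in both together, and 0 stronger in Res499 against IFNy-treated B16. Lists of 4607 peaks gave 3 stronger and 1 weaker in IFNy-treated, and 0 stronger in Res499, in both together and in Res499 against IFNy-treated B16. Leaving out 1 library gave 3 to 5 weaker in IFNy-treated, 2 to 6 stronger (6 without Res499 replicate 2) and 1 to 4 weaker in Res499, 1 to 4 weaker in both together, and 1 to 3 stronger and 0 to 2 weaker in Res499 against IFNy-treated B16. Fewer libraries make non-overlap easier to meet. For the settings other than all deposited peaks, the shares of all regions gained, lost or without overlap were not counted. The member counts under those settings are therefore not results about the members. With equal-length lists, mean peaks in the 8 windows were 15.7 in IFNy-treated B16, 16.7 in Res499 and 16 in untreated B16. With a 10 kb window they were 9.67, 9.67 and 16, in the same order of groups. With a −log10 q of at least 5 they were 16, 15 and 28.7. Each of these settings can only keep or lower a count, so lower means follow from the settings. Why the groups dropped by unlike amounts was not tested. Summits of about 10 fragments, as at Kit, limit what these lists can show.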
